A study of Acyrthosiphon pisum with 15 samples.

Results

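The 200 gene models described here were those of moderate level whose RNA varied least over 15 whole-body libraries of adult pea aphids, Acyrthosiphon pisum, a sap-feeding insect. They were taken from 8895 gene models with a mean normalised count between 200 and 5000, out of 20657 gene models in all, by ranking the standard deviation (SD) of log2(value + 1) over all 15 libraries and keeping the smallest. A normalised count is a read count divided by a scaling factor of its library, and it is not divided by gene length, so levels were not compared between gene models. Because this SD chose the members, their small spread is a description. Calls from fits over all gene models are given below as counts, from which nothing is read, since the choice limits how far a member can differ.

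Each library held 30 adults of 1 morph and 1 clone. The morphs were winged males, wingless males, sexual females, winged asexual females and wingless asexual females, and the clones F1, I18 and BK11 each gave 1 library of every morph (n = 3 per morph). Males and sexual females grew at 15 °C on days of 13 h light (11 h dark), asexual females at 18 °C on days of 16 h light (8 h dark). All adults were taken at an age of 2 days, apart from sexual females, taken at 2 to 6 days, so rearing and age range cannot be told apart from morph in comparisons across these groups. No other treatment or allele is named in the labels, and clones served as replicates, so every spread and p-value mixes clone differences with those of sample handling.

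Pea aphid females of a genotype can develop with or without wings, and can bear live young without mating or, in autumn conditions, lay fertilised eggs. Whether a male has wings is decided by its genotype. Genes needed in nearly every cell, often called housekeeping genes, encode parts of the machinery for transcription, translation, protein turnover and transport, and those with steady RNA serve as references in quantitative PCR. In whole bodies a steady level can also come from tissues whose shares change in opposite directions, and fewer cells of a type cannot be told apart from less RNA per cell.

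The gene identifiers could not be paired with functions. Of the 20657 identifiers, 61 were found in the RefSeq gene table of the species, and 1 of these, ACYPI53115-RA, was a member. The table lists it as protein-coding, with no symbol beyond the identifier. The members are therefore given by identifier, and neither their roles nor defining markers of tissues could be set beside their values. Syt4 (ACYPI009209-RA), which encodes a synaptotagmin of vesicle membranes, was not a member. Its normalised count ran from 688.4 to 10860 with a median of 5875, its SD was 1.24, and its mean of 5177 lay above the range.

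Reads per library, recovered from the whole-number steps of the values, ran from 28721904 to 75066116, and the 200 members together held 0.747% to 1.36% of the normalised counts of a library. All 200 had a normalised count of at least 10 in every library, so none entered a test through the group in which it was highest. Libraries of the same morph differed by far more than counting noise, and no pair of libraries held identical values.

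The members' SD ran from 0.148 to 0.345 with a median of 0.302, against a median of 1.12 for the 8695 gene models of the same range that were not chosen. On the linear scale the coefficient of variation of a member was 10.5% to 27.6%. The highest library of a member exceeded its lowest by 1.41-fold to 2.71-fold, with a median of 2.07-fold, and the median of the gene models not chosen was 12.1-fold. All 15 libraries lay within 1.5-fold for 4 members, within 2-fold for 80 and within 3-fold for all 200. Among those not chosen, 0, 3 and 506 did so. Leaving out a library can only raise the 2-fold count, so its rise is a description. Without a single library it was 81 to 122, with 122 reached without the F1 sexual female. It was 137 without that library and the I18 wingless male, which were picked after the values were seen. With libraries scaled to their median member, which uses the members' own values, it was 131. With scaling to the same total it was 42.

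**Figure D1:**
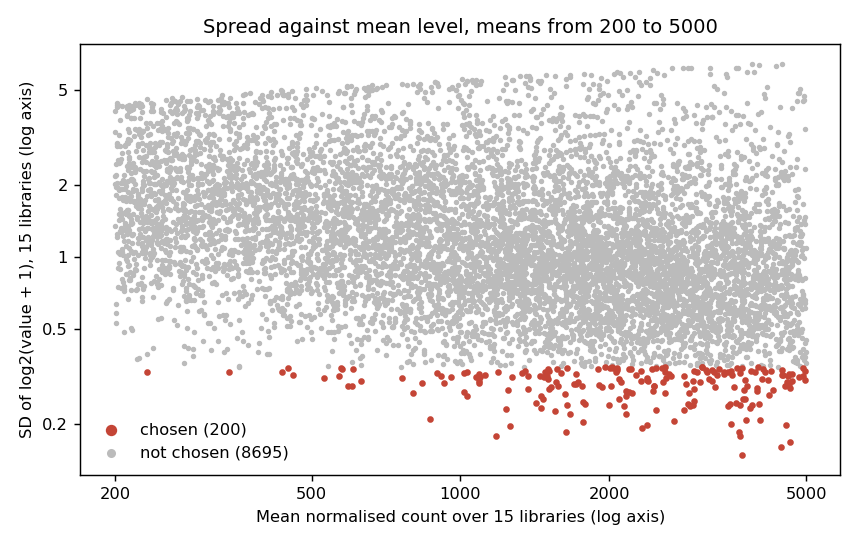
Spread of each gene model (SD of log2(value + 1) over 15 libraries, log axis) against its mean normalised count (log axis), for the 200 chosen gene models and the 8695 of the same range of means that were not chosen. The chosen ones form the lower edge, with SDs up to 0.345, and are thin at means under 1000.

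The limit fell within a continuous distribution. The members at places 199 and 200 were ACYPI004761-RA, with an SD of 0.3448, and ACYPI009262-RA, with 0.3450, and the next gene models outside were ACYPI53448-RA, with 0.3451, and ACYPI45687-RA, with 0.3458. ACYPI004761-RA had a lowest value of 2354, a median of 3937 and a highest value of 5677, while ACYPI53448-RA, just outside, had 216.0, 343.6 and 646.3. Within this range of means, steady gene models were more frequent at higher means. Members made up 0.268% of the gene models with a mean from 200 to 500, 0.905% from 500 to 1000, 2.32% from 1000 to 2000, 3.59% from 2000 to 3000 and 5.05% from 3000 to 5000. The median mean was 2383 among members and 1259 among those not chosen. Above a mean of 5000, 44 of 1613 gene models (2.73%) had an SD no larger than that of the last member, and below a mean of 200, 4 of 10149 did.

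The 5 members with the smallest SD were ACYPI001693-RA, ACYPI007086-RA, ACYPI000229-RA, ACYPI004285-RA and ACYPI001188-RA. ACYPI001693-RA, the steadiest of all with an SD of 0.148, had normalised counts of 3382, 3558 and 3700 in winged males of F1, I18 and BK11, and 3501, 3705 and 3586 in wingless males. It had 3860, 3772 and 3388 in sexual females, 4323, 3809 and 3210 in winged asexual females, and 4484, 4231 and 3175 in wingless asexual females. All morphs overlapped. The asexual females, whose F1 libraries were highest and BK11 libraries lowest, spread more widely than the males and sexual females. Its mean was 3547 ± 159.4 in winged males (SD, n = 3) and 3963 ± 694.1 in wingless asexual females, and these were its lowest and highest morph means.

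ACYPI007086-RA (SD 0.159) had 4872, 4808 and 4287 in winged males, 4424, 3623 and 4935 in wingless males and 4694, 4384 and 5127 in sexual females, each in the order F1, I18 and BK11. In winged asexual females it had 4756, 5003 and 3770, and in wingless asexual females 4175, 3770 and 4244. Its lowest library was the I18 wingless male and its highest the BK11 sexual female, 1.42-fold apart. ACYPI000229-RA (SD 0.168) ran from 3637 in the BK11 winged asexual female to 5513 in the F1 sexual female, with a median of 4565. ACYPI004285-RA (SD 0.178) lay at a lower level, from 950.9 in the BK11 wingless asexual female to 1385 in the F1 winged male, with a median of 1237. ACYPI001188-RA (SD 0.179) ran from 2949 in the I18 wingless male to 4745 in the BK11 sexual female, with a median of 3587. The matched gene model, ACYPI53115-RA, stood at place 74 with an SD of 0.287. It ran from 1499 in the I18 sexual female to 2497 in the BK11 wingless asexual female.

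**Figure D2:**
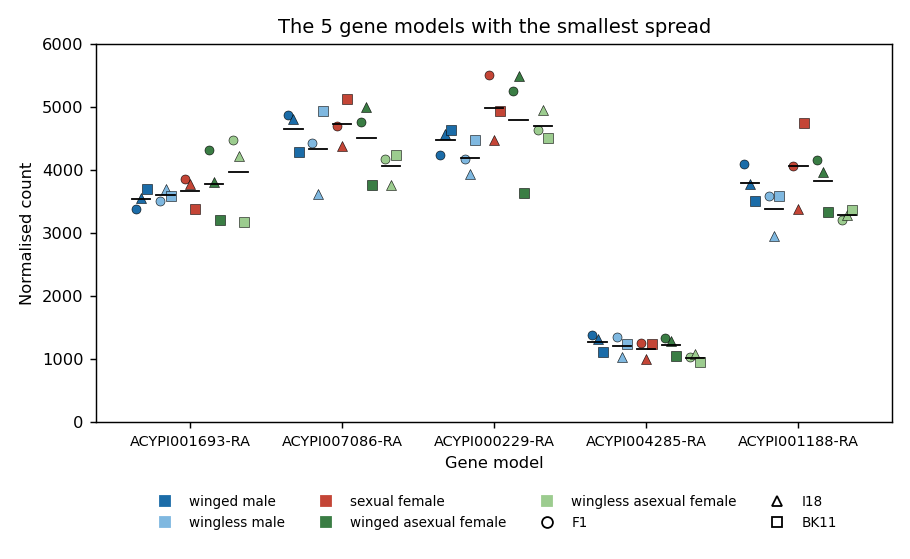
Normalised counts of the 5 gene models with the smallest SD in all 15 libraries, coloured by morph and shaped by clone, with a bar at each morph mean (n = 3 clones). All morphs overlap for ACYPI001693-RA, while each of the others has at least 1 pair of morphs that does not. For ACYPI004285-RA, whose 15 libraries lie between 950.9 and 1385, the winged males lie above the wingless asexual females.

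The spread that read counting alone would give was computed, taking each recovered read as counted independently. A member had between 111 and 2932 reads in its thinnest library, with a median of 1121. Counting alone would give an SD of 0.021 to 0.099 on the log2 scale, which is 1.23% of the observed variance for the median member and at most 8.96%. These counting figures leave out all other sources of error. The sources of the remaining variance were not tested.

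The spread of a ratio between members of the same library does not depend on how libraries are scaled. For each member, the SD of its log2 ratio to every other member was averaged, and this ranged from 0.293 to 0.478 with a median of 0.374. By this measure ACYPI000229-RA, ACYPI007086-RA and ACYPI001188-RA stood at places 2, 3 and 4, ACYPI004285-RA at place 13 and ACYPI001693-RA at place 15. The ratios use the members and libraries of the choice, so these places are a description. The steadiest ratio of any pair was that of ACYPI007086-RA to ACYPI001188-RA, which lay between 1.08 and 1.38 in all 15 libraries (SD of the log2 ratio 0.093). Both were lowest in the I18 wingless male and highest in the BK11 sexual female.

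Part of the members' remaining spread was shared by whole libraries. Taking each member's deviation from its own mean over 15 libraries, the median member stood at 0.28 on the log2 scale in the F1 sexual female and at −0.28 in the I18 wingless male. In the other 13 libraries it lay between −0.08 and 0.14. The F1 sexual female was the highest library for 75 of the 200 members and the I18 wingless male the lowest for 48, and 98 members had at least 1 of these 2 features. The gene models not chosen had medians of 0.61 in the F1 sexual female and −0.03 in the I18 wingless male, so the low stand of the I18 wingless male was not seen in them. Without these 2 libraries the median SD of the members was 0.276, and with every library scaled to its median member it was 0.270.

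**Figure D3:**
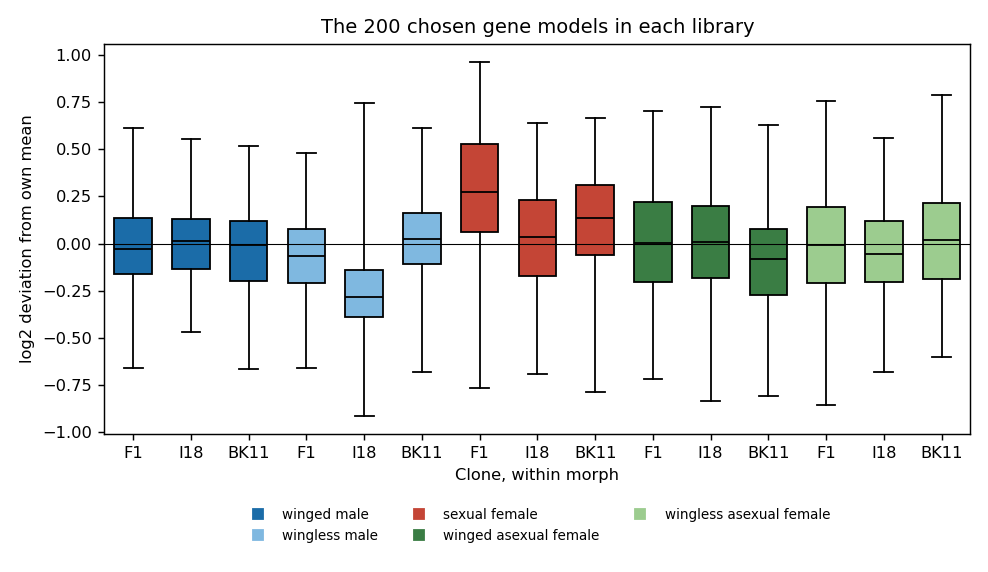
Deviation of each of the 200 members from its own mean (log2 scale) in each library, by morph and clone. Boxes span the quartiles with a line at the median, and whiskers reach the lowest and highest member. The F1 sexual female box sits above 0 and the I18 wingless male box below it, with medians of 0.28 and −0.28.

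Differences among morphs made up the larger share of what variation remained. For the median member, 56.3% of the sum of squares lay between morphs, 8.63% between clones and 29.9% was left over. In the gene models not chosen the medians were 86.8%, 2.87% and 9.19%. With 5 morphs and 3 clones, the share between morphs tends to be the larger even when neither differs, so its excess is a description. The share between morphs exceeded that between clones in 177 of 200 members, and it was under 50% in 80 members. It was lowest in ACYPI008740-RA, at 4.97%, and highest in ACYPI002497-RA, at 92.1%, both named after their values were seen. ACYPI002497-RA had 1705, 1794 and 1724 in winged males, 1985, 1867 and 1730 in wingless males, and 3787, 2907 and 3119 in sexual females. It had 1912, 2229 and 2068 in winged asexual females and 2056, 2157 and 2112 in wingless asexual females. Sexual females stood above every other library, and all other libraries lay between 1705 and 2229. Morph means of a member differed by at most 1.5-fold in 105 members and by less than 2-fold in all 200.

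Sexual females most often held the highest morph mean, in 93 of 200 members, followed by wingless asexual females in 43, winged males in 30, winged asexual females in 26 and wingless males in 8. The lowest morph mean was found in wingless males for 54 members, in wingless asexual females for 52, in winged asexual females for 43, in winged males for 30 and in sexual females for 21. Without the F1 sexual female and the I18 wingless male, sexual females were highest in 71 and wingless males lowest in 35. All 3 sexual female libraries lay above the other 12 in 28 members, against 16.3% of all 20301 gene models tested. They lay below in 1 member, against 11.5%. Without the F1 sexual female and the I18 wingless male, sexual females were above in 35 members and below in 7. No share of all gene models was computed for that set, and full separation is easier to reach with fewer libraries. Over all 15 libraries the counts were 5 above and 8 below for wingless asexual females, against 6.73% and 4.78%. They were 1 above and 4 below for winged asexual females, against 0.542% and 0.837%. For winged males they were 2 above and 0 below, against 2.12% and 2.44%, and for wingless males 0 above and 0 below, against 1.67% and 0.473%. The rule acted on these differences, so nothing is read from such counts.

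The 6 comparisons of morphs were fitted with limma over all 20301 gene models that passed a filter on low values, and calls were made at a Benjamini-Hochberg adjusted p under 0.05. By the F test among the 5 morphs, 58 of 200 members were called, beside 74.5% of all gene models tested. The rule used the same values, so this and every later count of members called restates the choice in part, and nothing is read from its distance to the share of all gene models. A steady gene model can be called, since the test weighs a difference against the spread among clones. The fit draws that spread toward the one usual for gene models of like level, and the resulting SE is called moderated. In the wing comparison of asexual females the median moderated SE of the members was 0.218, against 0.178 from their own spread. The moderated SEs given below can therefore exceed the spread of a member's own values. With clone as a replicate block 43 were called, 41 of them among the 58, beside 80.4% of all gene models. Of the 200, 106 were called in none of the 6 comparisons, and the share of all gene models called in none was not computed. The count called among the 5 morphs was 95 with DESeq2, 55 with edgeR and 129 with libraries scaled to the same total. These stood beside 79.4%, 73.3% and 76.9% of all gene models. In the fits of 10 libraries the count among morphs was 3 without clone F1, 18 without I18 and 6 without BK11, beside 58.0%, 64.2% and 64.5%. Without the I18 winged male or the BK11 winged male it was 38 each, without the F1 winged asexual female 37, and without the F1 or BK11 wingless asexual female 34 and 36, beside 71.5% to 72.1% of all gene models.

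Winged and wingless asexual females came from the same clones and rearing, and the main fit did not pair them by clone. The members' log2 differences, winged minus wingless, ran from −0.73 to 0.80 with quartiles of −0.22 and 0.21, and 179 of 200 lay within 0.5 of 0, against 41.9% of those not chosen. The median was −0.03, and it was 0.11 with trimmed mean (TMM) scaling and 0.67 with scaling to the same total. The 3 wingless asexual female libraries had the largest sums of normalised counts. ACYPI002313-RA had the largest positive difference. It had 4147, 4861 and 3203 in winged asexual females of F1, I18 and BK11, against 2241, 2344 and 2312 in wingless ones (log2 difference 0.80 ± 0.18, moderated SE). The groups did not overlap. ACYPI004054-RA had the largest negative difference, with 755.2, 935.0 and 1154 in winged against 1359, 1738 and 1586 in wingless asexual females (−0.73 ± 0.22). Here too the groups did not overlap. Its difference was −0.03 with scaling to the same total, and that of ACYPI002313-RA was 1.5.

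The next in size were ACYPI006521-RA, at 0.68 ± 0.20, and ACYPI005654-RA, at −0.73 ± 0.18 (moderated SE). They were at 1.38 and −0.03 with scaling to the same total. By limma, 8 members were called in this comparison, 2 higher and 6 lower in winged asexual females, beside 11.4% of all gene models tested in either direction, 4.54% higher and 6.82% lower. With TMM scaling it was 9 members, 7 higher and 2 lower, beside 6.21% and 5.54% of all. With scaling to the same total 99 were called, all higher, beside 17.5% higher and 1.86% lower of all. The count was 23 with DESeq2, 5 with clone as a block and 16 without the F1 sexual female and the I18 wingless male, beside 17.7%, 13.2% and 18.4%. Leaving out a single library gave 0 to 5 members, except that it was 11 without the F1 sexual female, 10 without the BK11 winged asexual female and 9 without the I18 wingless male. These stood beside 5.22% to 15.1% of all gene models. Without a whole clone it was 0 or 1, beside 0.885% to 3.69%.

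Wings in males, which go with genotype at a sex-linked locus, were the comparison with the most members near 0. The members' log2 differences, winged minus wingless males, ran from −0.55 to 0.59 with a median of 0.09, and 197 of 200 lay within 0.5 of 0, against 69.4% of those not chosen. ACYPI009821-RA had 5519, 4983 and 5735 in winged males of F1, I18 and BK11, against 4253, 2425 and 4441 in wingless males (0.59 ± 0.24, moderated SE). The I18 wingless male was the lowest of all 15 libraries. ACYPI006735-RA had 4071, 3469 and 3033 in winged against 5724, 5811 and 4052 in wingless males (−0.55 ± 0.20), and its groups overlapped narrowly. The next were ACYPI005654-RA, at 0.55 ± 0.18, and ACYPI002524-RA, at −0.24 ± 0.22. No member was called by limma, beside 0.35% of all gene models tested. At an unadjusted p under 0.05 limma gave 4, for which the share of all gene models was not computed. With edgeR 0 were called and with DESeq2 1, beside 0.0345% and 3.07% of all gene models. Without the F1 sexual female and the I18 wingless male the members' median difference was 0.00.

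The wing effects of the sexes, male minus female, differed by −0.72 to 1.27 on the log2 scale, and 170 of 200 differences lay within 0.5 of 0, against 37.7% of those not chosen. Their median was 0.07, and it was −0.07 with TMM scaling and −0.61 with scaling to the same total. ACYPI005654-RA had the largest, 1.27 ± 0.25 (moderated SE), and it was 0.60 with scaling to the same total. It had 3267, 3168 and 3569 in winged males against 2115, 2357 and 2367 in wingless males, and 2057, 2095 and 2941 in winged asexual females against 4343, 3483 and 3793 in wingless ones. Its level was higher in winged males and lower in winged asexual females than in the wingless form of the same sex, with no overlap in either sex. It was the only member called by limma for this difference, beside 1.87% of all gene models tested, 1.28% on the higher side. The count was 0 with edgeR and 3 with DESeq2, beside 0.892% and 7.72% of all. With scaling to the same total 8 were called, all on the lower side and without ACYPI005654-RA, beside 0.33% higher and 4.81% lower of all. The count was also 0 in the fits without any 1 of the F1 or I18 winged asexual female, a winged male of any clone, the F1 or BK11 wingless asexual female, the F1 wingless male or any clone. The others with large differences were ACYPI006187-RA, at 0.92 ± 0.31, ACYPI002313-RA, at −0.72 ± 0.26, and ACYPI007807-RA, at −0.57 ± 0.28. After scaling to the same total these were 0.25, −1.40 and −1.25.

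Wingless males were compared with sexual females, under the same rearing but with a wider age range in sexual females. The members' log2 differences, wingless males minus sexual females, ran from −0.82 to 0.57 with a median of −0.31, and 159 of 200 were below 0. Within 0.5 of 0 lay 158, against 12.7% of those not chosen. The median was −0.22 with TMM scaling, −0.12 with scaling to the same total, −0.12 without the F1 sexual female and the I18 wingless male, and −0.05 with libraries scaled to their median member. It was −0.36 in F1, −0.30 in I18 and −0.11 in BK11. ACYPI007250-RA had 2239, 2787 and 2955 in wingless males of F1, I18 and BK11, against 4650, 4303 and 5058 in sexual females (−0.82 ± 0.18, moderated SE), with no overlap. ACYPI004012-RA lay on the other side, with 3589, 3277 and 3652 in wingless males against 2151, 2485 and 2476 in sexual females (0.57 ± 0.16), again with no overlap.

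ACYPI002497-RA, whose values are given above, was at −0.81 ± 0.17 and ACYPI084711-RA at 0.45 ± 0.27. By limma, 42 members were called in this comparison, 1 higher and 41 lower in wingless males, beside 58.8% of all gene models tested in either direction, 32% higher and 26.8% lower. After scaling to the same total it was 17, 7 higher and 10 lower, beside 34.9% and 24.2% of all. The count was 27 with edgeR and 24 without the F1 sexual female and the I18 wingless male, beside 56.9% and 52.3%. Alone, leaving out the F1 sexual female, the F1 wingless male or the I18 wingless male gave 26, 25 and 27, beside 51.5%, 51.8% and 57.6% of all. The fits of 10 libraries called 3 without clone F1, 16 without I18 and 11 without BK11, beside 41.4%, 53.2% and 50.1% of all.

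Sexual and wingless asexual females differed in reproductive mode, rearing and age range. The members' log2 differences, sexual minus wingless asexual, ran from −0.91 to 0.80 with a median of 0.16, and 144 of 200 lay within 0.5 of 0, against 17.4% of those not chosen. The median was 0.03 with TMM scaling, 0.54 with scaling to the same total, 0.07 without the F1 sexual female and the I18 wingless male, and −0.01 with libraries scaled to their median member. ACYPI000973-RA had 757.8, 667.6 and 660.1 in sexual females of F1, I18 and BK11, against 404.2, 412.7 and 378.4 in wingless asexual females (0.80 ± 0.24, moderated SE). ACYPI007970-RA had 1116, 1236 and 1255 in sexual against 2155, 2147 and 2478 in wingless asexual females (−0.91 ± 0.19). Neither gene model had overlapping groups, and for the second all 3 wingless asexual libraries lay above the other 12.

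ACYPI001059-RA, with 5043, 5485 and 6336 in sexual against 3133, 3411 and 3196 in wingless asexual females, was at 0.79 ± 0.16, and ACYPI004754-RA at −0.89 ± 0.18 (moderated SE). ACYPI004754-RA was at −0.50 and ACYPI007970-RA at −0.52 with scaling to the same total. By limma, 46 members were called, 38 higher and 8 lower in sexual females, beside 47.9% of all gene models tested in either direction, 25.6% higher and 22.3% lower. With TMM scaling it was 36, 24 higher and 12 lower, beside 23.8% and 23.7% of all. With scaling to the same total it was 96, 94 higher and 2 lower, beside 30.1% and 18.1%. The count was 29 without the F1 wingless asexual female, beside 42.5%, and 9, 28 and 14 without clone F1, I18 or BK11, beside 37.2%, 41.9% and 40.3%.

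Both male morphs were set against both asexual female morphs, which differed from them in rearing as well as sex. The members' log2 differences, males minus asexual females, ran from −0.64 to 0.50, and 193 of 200 lay within 0.5 of 0, against 24.5% of those not chosen. Their median was 0.01, and it was −0.10 with TMM scaling and 0.24 with scaling to the same total. ACYPI007545-RA had 4950, 5280 and 5620 in winged and 4162, 3456 and 4364 in wingless males, against 3378, 3864 and 3276 in winged and 2981, 2794 and 3202 in wingless asexual females (0.50 ± 0.11, moderated SE). Of its male libraries the I18 wingless male fell within the asexual female values. ACYPI009998-RA had 1194, 1173 and 1053 in winged and 1104, 1120 and 1211 in wingless males, against 1902, 1546 and 1692 in winged and 1906, 1558 and 2154 in wingless asexual females (−0.64 ± 0.14). Its 6 male libraries all lay below the 6 asexual female ones.

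The next were ACYPI002279-RA, at 0.49 ± 0.17, and ACYPI002803-RA, at −0.59 ± 0.15 (moderated SE). ACYPI009998-RA was at −0.41 and ACYPI002803-RA at −0.36 with scaling to the same total. By limma, 39 members were called, 12 higher and 27 lower in males, beside 57.8% of all gene models tested in either direction, 32.5% higher and 25.3% lower. With TMM scaling it was 49, 3 higher and 46 lower, beside 30.2% and 27.3% of all. After scaling to the same total it was 56, 55 higher and 1 lower, beside 37.1% and 21.2%. The count was 25 without the F1 wingless asexual female, beside 53.7%, and 10, 25 and 11 without clone F1, I18 or BK11, beside 46.5%, 52.7% and 47.6%.

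**Figure D4:**
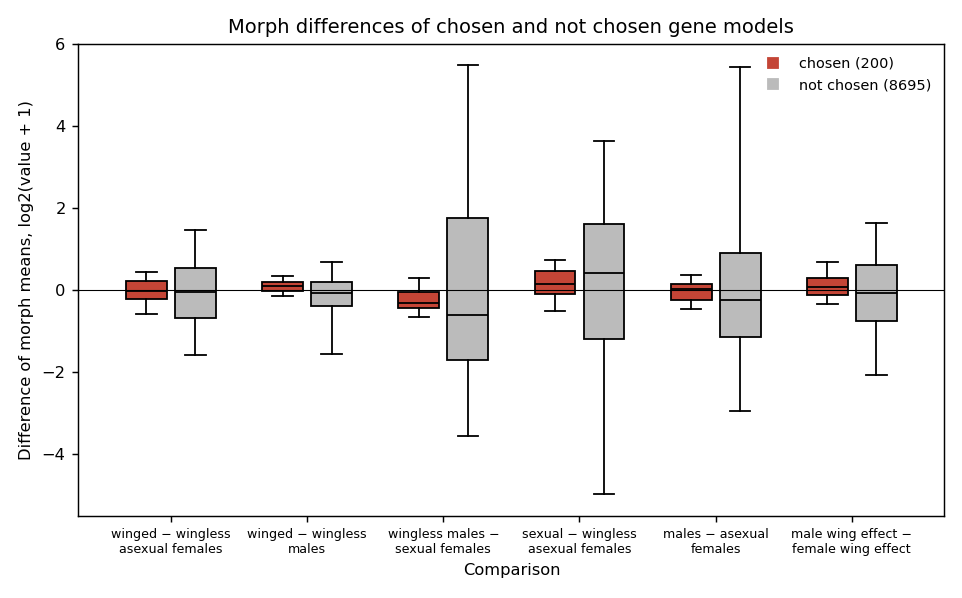
Differences of morph means on the log2(value + 1) scale in the 6 comparisons, for the 200 chosen gene models and the 8695 not chosen. Boxes span the quartiles with a line at the median, and whiskers run from the 5th to the 95th percentile. The chosen boxes stay near 0, and their medians lie between −0.31, for wingless males minus sexual females, and 0.16, for sexual minus wingless asexual females.

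Differences among the 3 clones were limited by the rule, which used the spread over all libraries, so they are a description. The highest and lowest clone means of a member were 0.18 apart on the log2 scale at the median and 0.63 at most, against a median of 0.41 for those not chosen. No member was called for a difference among clones by limma, beside 7.05% of all gene models tested. At an unadjusted p under 0.05 limma gave 6, for which the share of all gene models was not computed. With edgeR 0 were called and with DESeq2 4, beside 6.14% and 12.4% of all gene models. Nothing is read from these counts. Clone I18 had the lowest clone mean in 104 members and F1 the highest in 95. Over the 3 morphs left complete when the F1 sexual female and the I18 wingless male were set aside with their morphs, I18 was lowest in 59 and F1 highest in 60. The largest share of variation between clones was 67.8%, in ACYPI003847-RA, named after its values were seen. It had 764.1, 696.9, 863.6, 728.8 and 603.1 in F1 (winged male, wingless male, sexual female, winged and wingless asexual female), 452.2, 415.0, 504.9, 698.1 and 521.9 in I18, and 430.8, 538.5, 485.0, 449.0 and 447.6 in BK11. F1 stood above BK11 in every morph, and the I18 winged asexual female reached into the F1 values.

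Steadiness was also looked at in libraries that took no part in the choice. The same rule was applied to the 10 libraries of 2 clones, and the 200 gene models it chose were then followed over the 5 morphs of the clone left out. In F1 the median SD of those chosen was 0.393, against 1.27 for those not chosen. In I18 it was 0.313 against 1.0, and in BK11 0.318 against 1.10. The SD in the 10 libraries used for the choice had been 0.266, 0.294 and 0.298, so it was larger outside the choice each time. In the clone left out, 120, 114 and 118 of the 200 were among the lowest 5% of SDs in F1, I18 and BK11, and 199, 200 and 200 were in the lower part of the distribution, below its median.

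All 5 morphs of the clone left out lay within 2-fold for 52.5% of those chosen in F1, 76.0% in I18 and 73.5% in BK11, against 3.36%, 7.43% and 5.76% of those not chosen. The largest SD among those chosen was 1.47 in F1, 0.822 in I18 and 0.881 in BK11. Without the F1 sexual female and the I18 wingless male, the left-out clones F1 and I18 held 4 libraries each. The median SDs of those chosen were then 0.266 in F1, 0.305 in I18 and 0.298 in BK11. Those not chosen had 0.856, 1.10 and 1.09. The 3 choices shared 86 gene models, all of them members, and the members made up 140, 151 and 148 of the 200 chosen without F1, I18 and BK11. The clones come from the same study, so this is a look at other clones and not at another experiment.

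**Figure D5:**
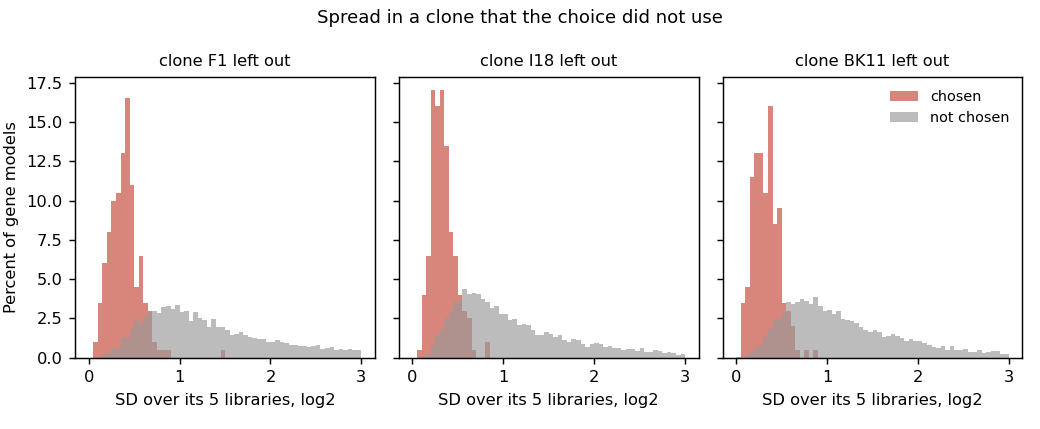
Distribution of the SD of log2(value + 1) over the 5 libraries of a clone, for gene models chosen by the same rule in the other clones and for those of the same range not chosen, as percent of each set in bins of 0.05. The axis ends at 3, above which lie 12.3% of those not chosen in F1, 8.34% in I18 and 7.34% in BK11. The chosen sets peak at SDs under 0.5 in all 3 clones.

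Which gene models count as steady depended on the scaling of libraries. With TMM scaling 155 of the 200 were chosen again and with scaling to the same total 88, and 72 were chosen under both. Ranking by the coefficient of variation chose 171 again, by the ratio of highest to lowest library 153, and by the 5 morph means 133. Of the 200, 38 were chosen again under all 29 alternatives, among them ACYPI001693-RA, ACYPI007086-RA and ACYPI000229-RA. The F1 sexual female was the single library with the most influence, since 148 were chosen again without it. Without any other single library it was 173 to 192.

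The identifiers of the members differed in form from those of the other gene models. Of 200 members, 182 (91.0%) had a 6-digit number starting with 00 or 01, against 67.2% of the gene models not chosen in the range and 42.0% of all 20657. Numbers of 5 digits were carried by 8 members (4.0%), against 18.9% of those not chosen. Higher 6-digit numbers were carried by 10 members (5.0%), against 13.9%. The difference in the first form was seen at each level, with 71.4% against 49.3% at means from 200 to 1000, 94.6% against 75.2% from 1000 to 2000, and 92.7% against 83.9% from 2000 to 5000. The sources used here do not say what the forms stand for.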

How the data were processed

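Per the labels, RNA of 30 whole adults per library was extracted with phenol and chloroform and sequenced on an Illumina instrument. The values the authors deposited are a normalised signal, in which each library's counts were scaled by 1 size factor. The submitters' processing notes name DESeq2 but no version of it. Nothing read for this work names the aligner, counter, strand setting, genome build or annotation (not given in the sources used here), and no genome coordinates or sequences were used. In every library 100% of values were whole multiples of the smallest positive value within 0.001 of a read, so the reads behind each value were recovered.

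Members were chosen on the deposited values. Tests used log2(value + 1) in limma 3.58.1 (R 4.3.3) with a mean-dependent prior variance, 5 morph means over 15 libraries, 10 residual degrees of freedom, and gene models with a value of at least 10 in at least 3 libraries (20301). P-values were adjusted over all of these. Differences understate changes near 0 and carry moderated standard errors. The F test among clones held morph as a term. The procedure was tested on simulated data.

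Samples were paired by clone: deviations from the morph mean correlated between libraries of a clone (r from 0.135 to 0.642 across gene models). The main fit of the morph comparisons held no clone term and so did not use this pairing. Alternatives took a pseudocount of 0.5 or 8, a filter of 50 or none, TMM and total scaling, edgeR 4.0.16 and DESeq2 1.42.0 on the recovered reads, clone as a block, other ranking rules and ranges, and leaving out libraries or clones. Fits without the F1 sexual female and the I18 wingless male, and scaling to the median member, were added after seeing the data. The members and lists were chosen with earlier results of these data known.

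Named gene models were the 5 with the smallest SD, those next to the limit, the matched member, Syt4, and the 2 largest differences in each direction per comparison. Planned lists by product name and tissue markers could not be applied, since identifiers carry no product names.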

Additional observations from a re-analysis of the deposited data

Results flagged for a closer look

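Each clone supplied 5 libraries, and in a group of 5 a library was looked at again when its gap to the nearest other exceeded 0.71 of the range. This was done for 33 groups, and 3 were found. The limit flags about 1 in 20 groups of 5 alike libraries by chance, but the 5 libraries of a clone are of different morphs. That rate therefore does not apply, and a library that stands apart cannot be told apart from its morph. The median deviation of the members stood apart in the F1 sexual female, at 0.276 on the log2 scale with a gap of 0.802 of the range, and in the I18 wingless male, at −0.283 with 0.72. ACYPI001188-RA stood apart in the BK11 sexual female, at a normalised count of 4745 with a gap of 0.825. The wing effect of ACYPI005654-RA differed between males and asexual females by 1.27 on the log2 scale in the limma fit across all gene models.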

How the results depend on the processing

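Members called depended on scaling and tool. Scaling to the same total moved the log2 differences by 0.70 for the wing comparison in asexual females, 0.39 for sexual minus wingless asexual females and −0.68 for the difference of wing effects, and TMM scaling by 0.13, −0.13 and −0.14. With scaling to the same total, 129 members were called among morphs, 99 for wings in asexual females, 17 for wingless males minus sexual females, 96 for sexual minus wingless asexual females and 8 for the difference of wing effects, 88 were chosen again and the median SD was 0.372. With DESeq2, 95, 23 and 1 were called among morphs and for wings in asexual females and males, 3 for the difference of wing effects and 4 among clones. With edgeR, 27 were called for wingless males minus sexual females and 0 for the difference of wing effects. With clone as a replicate block, 5 were called for wings in asexual females, and the other counts stayed within 1.5 times. Without the F1 sexual female and the I18 wingless male, 16 were called for wings in asexual females and 24 for wingless males minus sexual females. The median SD in the left-out clone F1, over its 4 other libraries, was then 0.266. Over all libraries of F1 it was 0.324 with TMM scaling. By the SD over morph means 133 were chosen again. With libraries scaled to the median member the median SD was 0.270.

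Leaving out a library or clone gave 3 to 65 calls among morphs, 0 to 11 for wings in asexual females, 0 for wings in males, 3 to 44 for wingless males minus sexual females, 9 to 51 for sexual minus wingless asexual females, 10 to 48 for males minus asexual females, 0 to 1 for the difference of wing effects and 0 among clones. It left 140 to 192 members chosen again and a median SD of 0.282 to 0.310. Beside the 0 for wings in males stood 0.0945% of all gene models without the I18 wingless male and 1.26% without the BK11 wingless male. Beside the 0 among clones stood 5.42% without the F1 winged asexual female and 7.5% without the BK11 winged male. For the difference of wing effects the share was 0.193% without the I18 winged male and 3.7% without the F1 sexual female. Nothing is read from these counts. Without the BK11 winged asexual female, 65, 44 and 51 were called among morphs, for wingless males minus sexual females and for sexual minus wingless asexual females. These stood beside 76.4%, 60.4% and 48.8% of all gene models. Without the F1 sexual female 48 were called for males minus asexual females, beside 60.5%. The lowest counts in these comparisons, without clone F1, are given above with their shares. The fits without a clone have fewer libraries. Other causes were not tested. No called difference of a named member changed sign with other pseudocounts, with TMM or total scaling, or without any single library. Nor did one without the F1 sexual female and the I18 wingless male. Signs were not checked in the other alternative runs. Pseudocounts and filters moved no count of members by more than 1.5 times. The fewest reads of any member in a library were 111, and the effect of depth on the choice was not tested.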
